A study of Mus musculus with 5 samples.

Results

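The 38 genes described here are the members of the 4 mouse Hox clusters that were chosen by symbol: 10 of HoxA on chromosome 6, 10 of HoxB on chromosome 11, 9 of HoxC on chromosome 15 and 9 of HoxD on chromosome 2. They are 38 of 22597 coding genes in the mm9 annotation. Hox genes encode homeodomain transcription factors that give cells their position along the body axis. Their order on the chromosome follows the order in which they are used along that axis: genes at the anterior end, with low numbers, act towards the head, and genes at the posterior end, with high numbers, act towards the tail and in the limbs. In embryonic stem cells the clusters are a known target of Polycomb repression, and cultured fibroblasts are known, from human skin, to keep a Hox pattern that matches the body site they came from.

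Engaged RNA polymerase was measured by global run-on sequencing (GRO-seq), in which polymerases already on the DNA extend their RNA in a reaction that supplies brominated uridine, and the labelled RNA is captured and sequenced by strand. The assay counts polymerases, not mature RNA, and because the RNA was broken by base hydrolysis, the 5′ end of a read marks where a polymerase was transcribing, not where transcription began. Embryonic stem cells of the mouse line V6.5 (MESC; passages 12 to 14, grown with LIF on irradiated feeders) gave 3 samples. Mouse embryonic fibroblasts (MEF; isolated from a male E13.5 embryo, passage 2, grown without LIF) gave 2 samples. All 5 carry the strain label C57Bl/6(f) x 129/Sv(m), and each run-on used the same number of nuclei. MEF are a mixed culture of the mesenchymal cells of an embryo; the labels do not say which body parts were used, and fewer cells that transcribe a gene cannot be told apart from less transcription per cell.

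The samples of a cell type were deposited as 1 pooled set of reads, so each cell type has 1 value with no spread between replicates, and no test of a difference was possible. The pools held 8616592 reads for MESC and 6583644 for MEF. Levels are RPKM, the reads per kilobase scaled to the library's total outside the mitochondrial genome, and every fold is a ratio of RPKM, given with an exact 95% interval for the counting error alone. A gene was called higher in a cell type at 4-fold or more if its higher count was 20 reads or more, and a count under 3 was set to 3. More than 10 kb from any gene, MESC had 0.190 reads per kb on each strand and MEF 0.111, which served as the intergenic background. The 2 windows of 10 kb with more than 1% of a pool's reads on a strand stayed in the total. They held 11.6% of the MESC pool and 16.4% of the MEF pool, and their similarity to ribosomal DNA was not tested. The cell type labels fit the markers: all 8 MESC markers, Pou5f1 and Nanog among them, were called higher in MESC, and 9 of 10 fibroblast markers were called higher in MEF. The 3 neural markers tested and 2 of 3 endoderm markers were called higher in MESC, 0 of 3 endothelial markers in either, and Ptprc, a blood cell marker, in MEF with 4 and 35 reads. The feeder layer is itself made of fibroblasts, and none of the 10 fibroblast markers was at 0 in the MESC pool, where their summed level was 3.93 RPKM against 122.6 RPKM in MEF, or 3.21%. The part of feeder cells in the Hox reads of MESC was not tested; the summed coding-span level of the 38 Hox genes in MESC was 40.2% of that in MEF, and by cluster 84.4% for HoxA, 31.6% for HoxB, 27.2% for HoxC and 23.9% for HoxD. Single fibroblast markers ranged from 0.563% of their MEF level in MESC, for Acta2, to 36.1%, for Twist1.

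Over the 4 clusters together, each from its first to its last member, the strand of the Hox genes held 936 reads in MESC and 1681 in MEF, a density 2.34-fold higher in MEF (2.16 to 2.54). The clusters were not alike. The HoxC strand held 132 reads in MESC and 431 in MEF, a ratio of 4.26 (3.50 to 5.22), and the HoxD strand held 75 and 200, a ratio of 3.48. The HoxB strand held 446 and 694 reads, a ratio of 2.03 (1.80 to 2.29), and the HoxA strand held 283 and 356, a ratio of 1.64. The interval of HoxC thus lay above those of HoxA and HoxB, and every cluster read more on its gene strand in MEF.

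The opposite strand was also transcribed in all clusters. On it HoxA held 337 reads in MESC and 264 in MEF, a ratio of 1.02 (0.866 to 1.20) that leaves either direction possible. HoxC held 81 and 238, a ratio of 3.83, HoxD 68 and 105, a ratio of 2.01, and HoxB 145 and 183, a ratio of 1.65. The gene strand took 57.4% of HoxA reads and 79.1% of HoxB reads in MEF, so HoxB was the most one-sided cluster and HoxA the least. Most sense reads lay outside the coding spans, the stretches from a member's start to its stop codon. In MEF these held 17.4% of the HoxA sense reads (13.6 to 21.8%) and 17.4% of the HoxC sense reads (13.9 to 21.3%). Both intervals include the coding spans' share of the cluster length, 20.4% in HoxA and 19.9% in HoxC. In HoxB they held 19.6% of the MEF sense reads on 11.3% of its length. In MESC they held 26.9% of HoxA sense reads (21.8 to 32.4%) and 31.8% of HoxC sense reads (24.0 to 40.5%), above the same length shares. Hoxa3 alone gave 43 of these 76 HoxA reads, and Hoxc13 gave the most of the HoxC reads.

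In MEF the gene strand was read along nearly the whole of HoxA, HoxC and HoxD. Counted in 5 kb bins, HoxA was above the intergenic background in 20 of 20 bins, HoxC in 21 of 24 and HoxD in 17 of 20. The HoxB bins above background, 25 of 35, held a run of 115 kb. In MESC the same strands were above background in 15, 13 and 9 bins of HoxA, HoxC and HoxD, and in 24 bins of HoxB. The bin over the Hoxb9 start was the fullest of the HoxB gene strand in both cell types, with 110 reads in MESC and 136 in MEF. It begins at 96130630, before the Hoxb9 start at 96132771, so part of its reads lay before the gene.

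**Figure D1:**
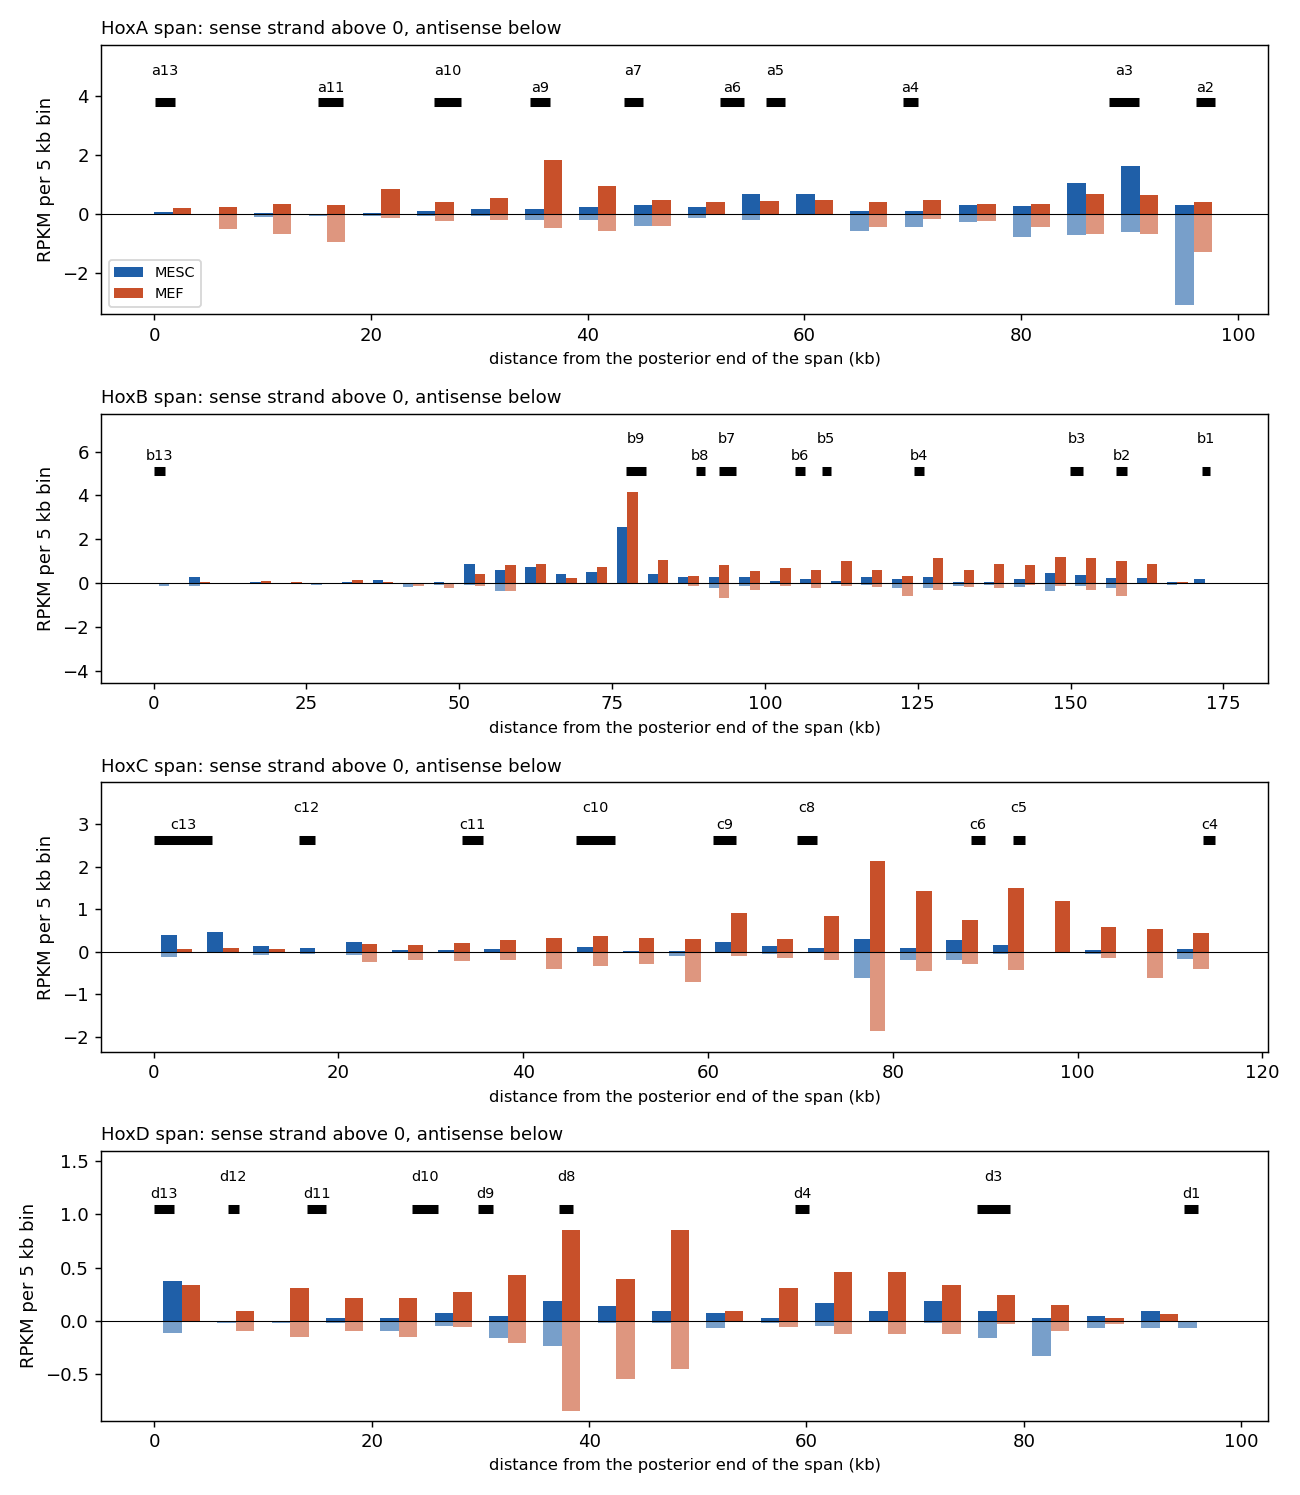
Polymerase density (RPKM) in 5 kb bins along the 4 Hox clusters, from the posterior end at 0 kb, with the gene strand above 0 and the opposite strand below; bars are the pooled MESC and MEF libraries, black blocks are the members' coding spans, and a last bin shorter than 1 kb is not drawn. MEF bars stand above MESC bars along most of HoxC and HoxD and the posterior part of HoxA, while the anterior end of HoxA is read in both.

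HoxA was split along its length. From Hoxa2 to Hoxa5 the gene strand held 220 reads in MESC and 137 in MEF, a ratio of 0.81 (0.65 to 1.01), whereas from Hoxa6 to Hoxa13 it held 58 and 217, a ratio of 4.88 (3.64 to 6.64). The opposite strand was split in the same way, with 281 and 128 reads in the anterior part, a ratio of 0.59 (0.48 to 0.73), and 54 and 136 in the posterior part, a ratio of 3.29. The point of division was chosen after the values were seen, and these ratios are a description. The anterior part was thus read as much or more in MESC, and the posterior part more in MEF.

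Hoxa3, a gene of hindbrain and pharyngeal arch patterning (chromosome 6, 52113358 to 52163338, minus strand), had the most reads of any coding span in MESC, 43 against 10 in MEF. Its density there was 1.85 RPKM in MESC and 0.562 RPKM in MEF, 3.30-fold higher in MESC (1.63 to 7.36), short of the 4-fold call. Its whole model, which runs over Hoxa4, Hoxa5 and Hoxa6, held 239 and 161 reads. Hoxa5, which acts in lung and neck development, held 33 reads in MESC and 18 in MEF, a ratio of 0.71 (0.38 to 1.30), and its promoter window, at the start, held 13 and 2. Hoxa2, which patterns the neural crest of the second arch, had few sense reads, 6 and 7 in its coding span, but 124 reads of the opposite strand in MESC and 35 in MEF, 2.72-fold more in MESC (1.85 to 4.07). Hoxa3 and Hoxa5 thus had the highest coding-span densities of the 38 genes in MESC.

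Further along HoxA the order turned. Hoxa9, used in trunk and limb and known as a leukaemia gene, held 12 reads in MESC and 44 in MEF over its whole model, 4.78-fold (2.48 to 9.95). At the annotated Hoxa9 start with the most reads the counts were 0 and 15. Hoxa10, needed for uterus and limb development, held 6 and 33, 7.17-fold. Hoxa11 had 0 and 6 reads in its coding span. Its opposite strand had 3 and 29, 12.6-fold more in MEF (3.91 to 64.7), and the annotated Hoxa11as RNA on that strand held 5 and 36. The remaining HoxA members, Hoxa4, Hoxa6, Hoxa7 and Hoxa13, had 1 read each in MESC and 3 to 4 in MEF over the coding span, too few to compare singly.

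HoxB was led by Hoxb9, a gene of the thoracic skeleton and mammary gland (chromosome 11, 96132771 to 96137909, plus strand). Its coding span held 30 reads in MESC and 75 in MEF, or 1.05 and 3.44 RPKM, 3.26-fold higher in MEF (2.11 to 5.16), the highest coding-span density of the 38 genes in MEF. The gene did not stand alone: the 30 kb before it held 214 reads in MESC and 161 in MEF on the same strand, a ratio of 0.98 (0.79 to 1.21). Reads therefore came up to the gene at a like density in both cell types, and from Hoxb9 to Hoxb2 the counts were 192 and 504, a ratio of 3.42 (2.89 to 4.06). These stretches were also chosen after the values were seen. The stretch of Hoxb9 with the most MEF reads past its start lies in its intron, at chr11:96133521-96133770 of mm9. It is shown from the plus strand, and capitals mark each base where a MEF sense read began, 18 reads at 13 positions with at most 4 at 1 position.
Hoxb9: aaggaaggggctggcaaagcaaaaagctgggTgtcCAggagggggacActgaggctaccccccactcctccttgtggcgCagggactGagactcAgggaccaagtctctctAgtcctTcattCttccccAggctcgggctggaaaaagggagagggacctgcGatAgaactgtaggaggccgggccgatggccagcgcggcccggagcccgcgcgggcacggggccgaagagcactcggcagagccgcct

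Hoxb3, which acts in the hindbrain, held 36 reads in MESC and 132 in MEF over a model of 23.4 kb, 4.78-fold (3.29 to 7.12). Nearly all of these lay before its coding span, 32 and 121, and 2 and 8 in it. Hoxb2, Hoxb6 and Hoxb7 gave 12 and 29, 15 and 45, and 16 and 33 reads, ratios of 3.15, 3.91 and 2.69, all higher in MEF and short of 4-fold. Hoxb4, Hoxb5 and Hoxb8 had 0, 0 and 5 coding-span reads in MESC and 3, 5 and 10 in MEF. The ends of the cluster were different: Hoxb1, the hindbrain gene at the anterior end, had 5 coding-span reads in MESC and 0 in MEF, and Hoxb13, a tail and prostate gene set apart at the posterior end, had 0 in both.

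HoxC showed the widest contrast. From Hoxc11 to Hoxc4 the gene strand held 72 reads in MESC and 408 in MEF, a ratio of 7.39 (5.74 to 9.63), but from Hoxc13 to Hoxc12 it held 47 and 7, 5.15-fold more in MESC with a lower limit of 2.31. This division, too, was chosen after the values were seen. Hoxc4, Hoxc5 and Hoxc6, genes of neck and forelimb level, held 5 and 74, 5 and 33, and 27 and 134 reads over their whole models, ratios of 19.3, 8.61 and 6.47 with intervals whose low ends were 7.91, 3.34 and 4.26. The Hoxc4 reads lay before its coding span, 4 and 70 against 1 and 1 inside it, and the next 10 kb after the gene held 4 and 33. Hoxc9, a trunk gene, held 9 and 30, a ratio of 4.35 (2.01 to 10.4). The opposite strand moved the same way at Hoxc4, with 10 and 38 reads, and at Hoxc9, with 4 and 22.

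The Hoxc6 and Hoxc9 models and part of the Hoxc5 model lie in a longer model of the same strand, Gm20398, which held 60 reads in MESC and 289 in MEF, a ratio of 6.28 (4.74 to 8.44), so the shared reads cannot be assigned to 1 transcript. On the 1753 bases of Hoxc5 outside it, MESC had 0 reads and MEF 11, at least 4.78-fold more and under the read minimum, in place of the 8.61-fold of the whole model. Hoxc8, Hoxc10 and Hoxc11, of thoracic to hindlimb level, had 2, 3 and 1 coding-span reads in MESC and 12, 11 and 4 in MEF. Of the 3 annotated starts of Hoxc6, the one with the most reads in both libraries together was not the first. MESC had 0 reads there and MEF 22, and since these reads picked the start, the counts are a description.

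**Figure D2:**
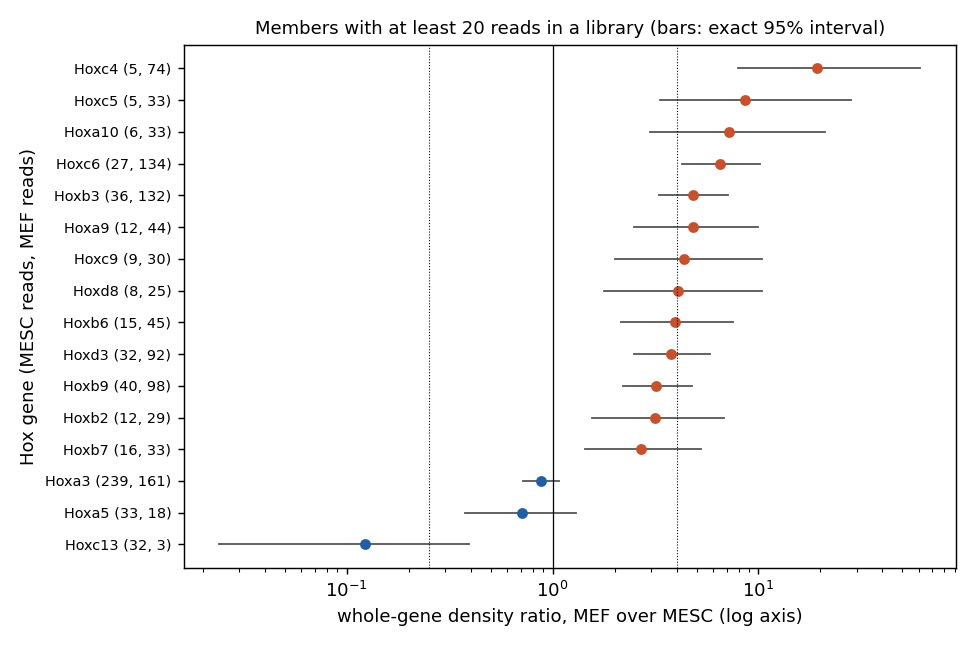
Ratio of whole-gene density, MEF over MESC, on a log axis for the 16 members with at least 20 reads in a library; bars are exact 95% counting intervals, dotted lines mark 4-fold either way, and the reads of each library stand beside the name. Hoxc4 is highest at 19.3 and Hoxc13 lowest at 0.12, and Hoxa3 and Hoxa5 are the other members below 1.

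Hoxc13, the posterior-most HoxC gene, which drives hair and nail keratins, went the other way. Its whole model (chromosome 15, 102751534 to 102759245, plus strand) held 32 reads in MESC and 3 in MEF, 8.18-fold more in MESC (2.56 to 41.7). On the opposite strand the 500 bases before its start held 46 reads in MESC and 1 in MEF. The sense reads did not pile up at the start itself, as its promoter window had fewer than 5 in each library. All 46 reads fell between 251 and 500 bases before the start, at chr15:102751034-102751283 of mm9, a stretch with no exon of Hoxc13. Within it the annotation has a 106-base coding model of the minus strand, Gm17649, at 102751146 to 102751251. Most positions where these reads began lie at lower coordinates than that model. The sequence is shown from the plus strand, and capitals mark each base where an MESC read of the minus strand began, 29 positions with at most 6 reads at 1 position; it is shown because it holds the most reads of the 38 windows before a start.
Hoxc13: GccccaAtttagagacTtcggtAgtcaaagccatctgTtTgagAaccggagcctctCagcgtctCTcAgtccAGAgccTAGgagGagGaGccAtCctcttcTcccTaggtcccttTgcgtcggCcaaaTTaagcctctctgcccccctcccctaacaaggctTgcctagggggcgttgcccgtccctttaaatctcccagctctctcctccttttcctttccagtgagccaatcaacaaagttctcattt
The read starts were spread over the left part of this stretch, with none towards the Hoxc13 side.

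**Figure D3:**
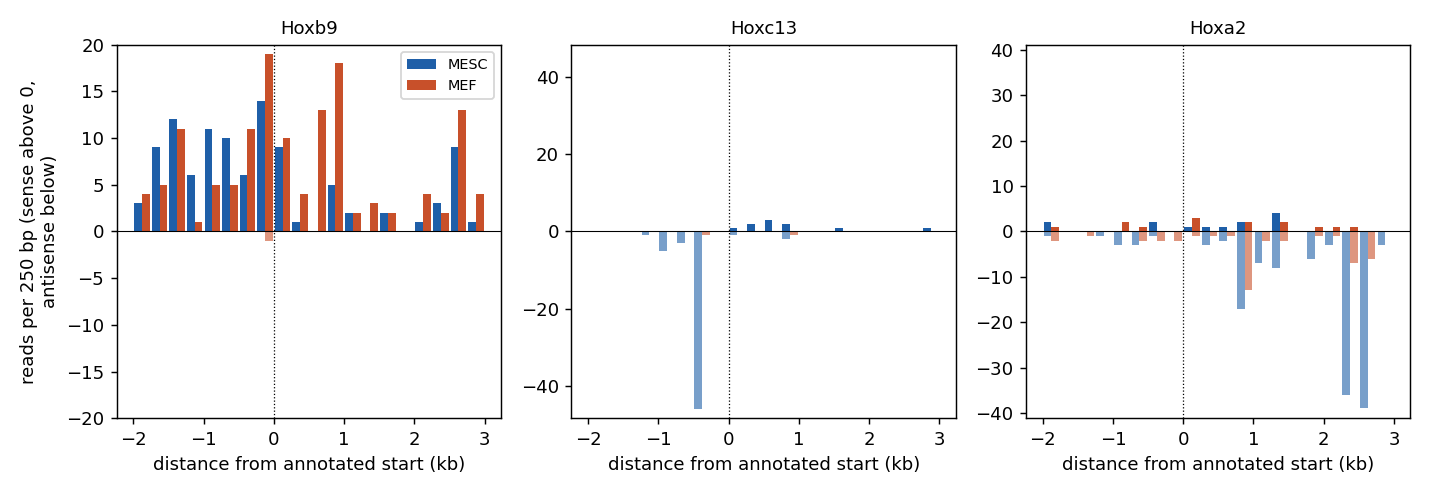
Reads per 250 bases around the annotated starts (at 0) of Hoxb9, Hoxc13 and Hoxa2, with the gene strand above 0 and the opposite strand below, for the pooled MESC and MEF libraries. Hoxc13 has a tall MESC bar of 46 opposite-strand reads before its start, Hoxb9 is read before and after its start in both, and Hoxa2 has opposite-strand reads near its end.

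HoxD had the lowest gene-strand density in MESC, 0.0904 RPKM. Hoxd3, a gene of the neck skeleton, held 32 reads in MESC and 92 in MEF over a long model, a ratio of 3.75 (2.48 to 5.80). Of these, 29 and 84 lay before the coding span. That stretch holds the whole Hoxd4 model on the same strand, so the shared reads cannot be assigned to 1 gene. Hoxd8, a trunk gene, held 8 and 25, a ratio of 4.08 (1.78 to 10.5). Hoxd4, Hoxd9, Hoxd10 and Hoxd13, the last a digit gene, had 1, 1, 1 and 3 coding-span reads in MESC and 7, 4, 3 and 7 in MEF. Hoxd1, Hoxd11 and Hoxd12 had 0 coding-span reads in both, and the gap between Hoxd3 and Hoxd1 held 3 and 7. Transcription of these coding spans was not detectable at this depth.

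By the call over whole genes, 16 of the 38 members had at least 20 reads in a library. Of these, 8 were called higher in MEF (Hoxa9, Hoxa10, Hoxb3, Hoxc4, Hoxc5, Hoxc6, Hoxc9 and Hoxd8), against 5.71% of 13834 genes tested, and 1, Hoxc13, higher in MESC, against 9.30%. The members' median log2 ratio was 2.00 and that of all genes tested -0.26. With bases shared between models of a strand left out, 5 members were called higher in MEF. The read minimum favoured members that are high in a library. Of the 8, only Hoxb3 and Hoxc6 reached it in both libraries, and the others reached it in MEF alone. Hoxc13 reached it in MESC alone. The 16 and their median thus do not stand for the other 22. Over coding spans 3 members reached 20 reads, Hoxa3, Hoxb9 and Hoxc13: 0 were called higher in MEF, where the share over all genes was 5.78%, and 1, Hoxc13, higher in MESC, where it was 8.80%.

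All 38 could be read against the intergenic background. In MEF the coding spans of 30 members, 78.9%, were above it, where 58.4% of all coding genes were. In MESC 15 members, 39.5%, were above it, where 62.1% of all coding genes were. This contrast in MESC depends on the coding span: over whole genes 28 members were above background in MESC, or 73.7% against 65.0% of all coding genes, and 32 in MEF, or 84.2% against 61.4%. Over coding spans both libraries had 13 members above, MESC alone Hoxb1 and Hoxc13, and MEF alone 17, or 44.7% against 3.99% of all coding genes, and 6 were above in neither: Hoxb13, Hoxc4, Hoxc12, Hoxd1, Hoxd11 and Hoxd12. Hoxc4 is among these because its reads lie before its coding span. Density was higher in MEF for 29 members, higher in MESC for 5 and 0 in both for 4; among all coding genes these were 30.5%, 48.1% and 21.4%.

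Against other genes, the members were low in MESC and above the middle in MEF. The median coding-span density of the members was 0.100 RPKM in MESC and 0.442 RPKM in MEF, where all coding genes had medians of 0.251 and 0.186 RPKM. In MEF 30 members were above the median gene and in MESC 10, and the highest members stood at percentiles 95.3 and 86.4. The counts behind these levels were small, with a median of 2 reads in MESC and 6.5 in MEF per coding span and a highest of 43 and 75. Runs of 35 bases shared exactly with another member's coding span made up 0.436% of the coding spans and at most 2.79% of one, Hoxb7. Matches with mismatches and bases outside coding spans were not covered, so the effect of shared reads on the counts was not tested.

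**Figure D4:**
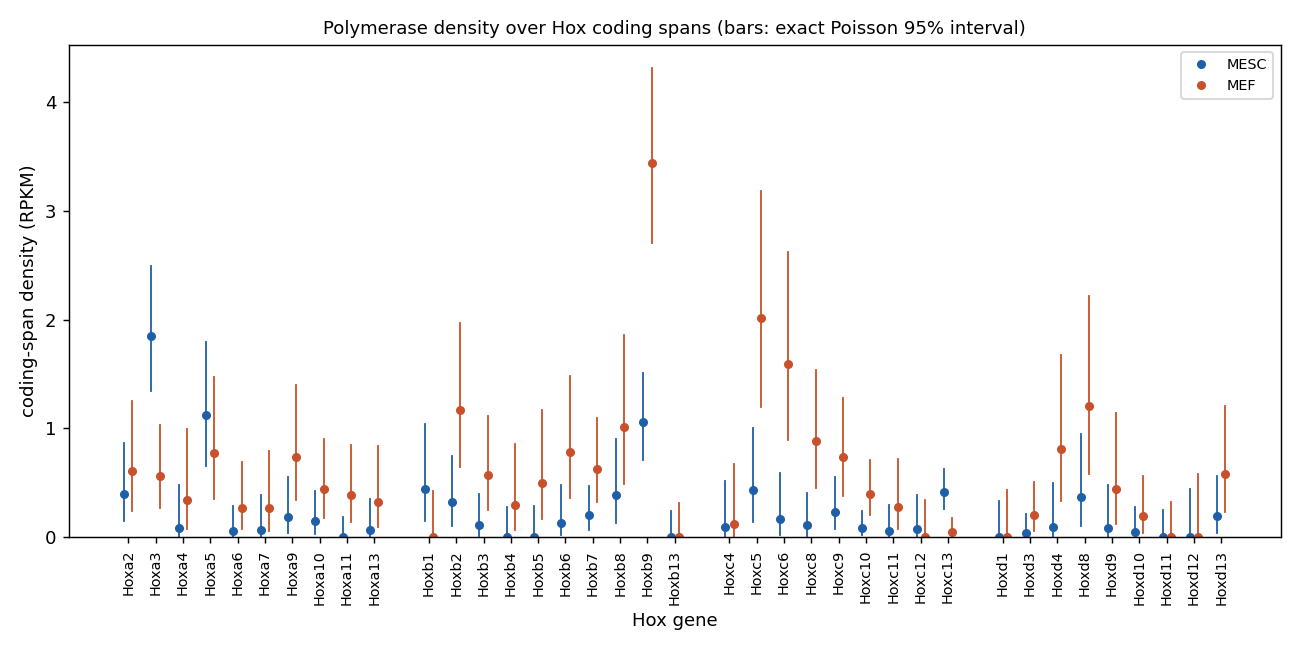
Coding-span density (RPKM) of the 38 Hox genes in the pooled MESC and MEF libraries; points are the density and bars its exact Poisson 95% interval, which covers counting error only. Hoxb9 in MEF is highest at 3.44 RPKM and Hoxa3 is the highest in MESC at 1.85 RPKM.

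Members with the same number in different clusters descend from 1 ancestral gene and are called a paralog group. Summed over coding spans, group 9 held 39 reads in MESC and 100 in MEF, a ratio of 3.34 (2.29 to 4.97), and Hoxb9 alone gave 30 and 75 of these. Groups 2, 4 and 11 held 11 and 21, 3 and 14, and 1 and 10, ratios of 2.49 (1.15 to 5.72), 6.09 (1.70 to 33.0) and 13.0 (1.86 to 566). Group 6 held 5 and 28, a ratio of 7.30 (2.78 to 24.2), group 8 held 11 and 32 and group 10 held 7 and 21, ratios of 3.79 and 3.91. Groups 5 and 7 held 22 and 32 and 6 and 15, with ratios of 1.90 and 3.26. Groups 2 and 4 to 11 were therefore higher in MEF with intervals above 1. Groups 3 and 13 held 46 and 22 and 26 and 13 reads, and their ratios of 0.62 (0.36 to 1.06) and 0.65 (0.31 to 1.32) leave either direction possible; Hoxa3 gave 43 of the 46 MESC reads of group 3 and Hoxc13 22 of the 26 of group 13. Groups 1 and 12 held 5 and 1 reads in MESC and 0 in MEF.

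Starts carried few reads. The promoter windows, from 50 bases before to 300 after the annotated start, held 55 reads in MESC and 77 in MEF over the 38 members, at most 13 in 1 window, so 0 of the 38 reached 20 reads and 0 were called, where 2.88% of all tested genes were called higher in MEF and 6.11% in MESC. Their density, 0.481 and 0.879 RPKM, was above that of the coding spans, 0.274 and 0.602 RPKM. The 500 bases upstream on the opposite strand held 78 and 56 reads, 46 of the 78 before Hoxc13, which was the 1 member tested there and was called higher in MESC, where the share over all genes was 9.09% (higher in MEF, 1.34%). In the 300 bases around the start, from 250 before to 50 after, the members had a median GC content of 54.7% and all coding genes 55.3%, and a median CpG ratio of 0.664 against 0.540. Searched on both strands, CCAAT was found in 57.9% of the members and 37.6% of all genes, TATAAA in 21.1% and 13.47%, GGGCGG in 36.8% and 43.9%, and TTTATNG, a core that posterior Hox proteins are known to bind, in 26.3% and 10.2%. These are letter matches and do not show binding.

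Noncoding genes lie between the members. 2700086A05Rik, on the opposite strand of HoxA from within the Hoxa3 model to the end of Hoxa7, held 124 reads in MESC and 59 in MEF, 1.61-fold more in MESC (1.17 to 2.24). 1700109F18Rik held 11 and 38 and 0610040B09Rik 7 and 24, ratios of 4.51 and 4.47, and Hoxb3os held 10 and 25. The clusters also hold microRNA genes, among them those of the miR-10 and miR-196 families, which in animals act on Hox messages among others; miR-10 lies near the group 4 genes and miR-196 near the group 9 genes. Their mature sequences, from RefSeq (GRCm38.p6), are shown with the seed, bases 2 to 8, in capitals, because the seed is what groups them.
mmu-miR-10a-5p: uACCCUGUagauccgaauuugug
mmu-miR-10b-5p: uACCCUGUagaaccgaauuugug
mmu-miR-196a-5p: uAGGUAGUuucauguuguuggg
mmu-miR-196b-5p: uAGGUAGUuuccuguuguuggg
In 5 kb windows on their strand, Mir10a held 6 reads in MESC and 10 in MEF and Mir10b 1 and 10. Mir196a-1, before Hoxb9, held 18 and 18, Mir196a-2 1 and 8, and Mir196b, by Hoxa9, 7 and 19. The Mir196a-1 window, with equal counts, lies in the stretch before Hoxb9 whose density was alike in both.

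Genes of the Hox pathway were counted over whole genes by the same call, which 5.71% of all genes tested passed as higher in MEF and 9.30% as higher in MESC. Of the 9 TALE cofactors, the Pbx, Meis and Pknox proteins that bind DNA with Hox proteins, all were tested: 0 were called higher in MEF and 1, Pbx4, with 214 reads in MESC and 24 in MEF, higher in MESC. Meis1, with 563 and 1179 reads, was 2.73-fold higher in MEF (2.47 to 3.03), short of the call. Of 16 upstream regulators 12 were tested, and 5 were called higher in MESC, all of which reached the read minimum in MESC alone. Egr2, a hindbrain regulator with 19 and 72 reads, was called higher in MEF and reached the minimum in MEF alone. The 5 included the signals Wnt3, with 169 and 1, and Fgf8, with 64 and 0. Cdx1, Cdx2 and Cdx4, direct activators of trunk Hox genes, held 13, 8 and 9 reads in MESC and 1, 0 and 0 in MEF, under the read minimum.

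Of 10 limb and trunk patterning genes 7 were tested and 4 called higher in MEF, of which Tbx5 and Alx4 reached the read minimum in MEF alone: Prrx1, a limb mesenchyme factor with 242 and 3452 reads, Alx4 with 2 and 77, Lmx1b with 20 and 74 and Tbx5, a forelimb gene, with 5 and 49. The 4 trithorax genes, whose proteins keep Hox genes on, were tested and 0 called in either direction; Mll1 held 1228 and 631 reads. Of the listed neighbours of the clusters, 4 were tested beside HoxA, 5 beside HoxB, 5 beside HoxC and 4 beside HoxD. None of these was called higher in MEF, and 2 were called higher in MESC, Ttll6 and Calcoco2, both beside HoxB. Both reached the read minimum in MESC alone. These calls cover the listed genes alone. On the gene strand, 10 to 50 kb past the anterior end of HoxC, MESC had 6 reads and MEF 46, a ratio of 10.0 (4.26 to 28.7). On the opposite strand, at the same distance past the anterior end of HoxA, MESC had 85 reads and MEF 1.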

How the data were processed

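Run-on RNA had been labelled with Br-UTP, hydrolysed and captured by antibody, per the labels' protocols. Per the series design text, the authors aligned reads with Eland to mm9 and removed reads similar to rRNA; per the file headers, the libraries of a cell type were pooled. How reads with several matches or duplicates were handled, and by which Eland version, is not given in the sources used here. Each line of the deposited files is 1 read with the value 1, a raw count. The planned edgeR test needed separate samples and was not made.

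Reads were counted by 5′ end and strand over GENCODE models on NCBIM37, with symbols joined into 1 model. Ratios have exact conditional (Clopper-Pearson) intervals; levels above background were judged by exact Poisson limits, checked on simulated data. Members with at least 20 reads were described in full, others by count. Members and lists were chosen with earlier results of these data known. Alternatives were TMM (edgeR 4.0.16) and median-ratio (DESeq2 1.42.0) scaling, distinct positions, read length, read minimum and gene model. Tools were Python 3.11.15 and scipy 1.17.1. Results of some genes of the pathway lists are not reported here.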

Additional observations from a re-analysis of the deposited data

How the results depend on the processing

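No paired analysis was possible because each cell type was deposited as 1 pool of its samples, and for the same reason no replicate could be left out. All values of single members and 128 of 146 values of clusters and counts stayed within the interval or 1.5 times of the main one, and no value whose interval excluded equal levels changed direction. The exceptions were as follows, on the log2 MEF over MESC scale for spans. The HoxB sense span moved from 1.02 to 1.24 with TMM and 1.26 with median-ratio scaling, and the HoxA sense span from 0.71 to 0.95 with median-ratio scaling and 0.48 with 10 kb added on each side. The HoxA antisense span moved from 0.03 to 0.29 with MESC reads of 35 bases only (-0.16 with those of 36 bases only), and the HoxC antisense span from 1.94 to 1.24 with 10 kb added. Hoxc13 was no longer counted as higher in MESC, leaving 0 in whole genes and 0 in coding spans, with MESC reads of 35 bases only, of 36 bases only and with a minimum of 50 reads, since each leaves it with fewer reads than the minimum. Members called higher in MEF over whole genes fell from 8 to 3 with a minimum of 50 reads and to 5 on unshared bases. Over coding spans they went from 0 to 4 with no minimum and to 2 with the shortest coding sequence, and over promoters from 0 to 1 at the annotated start with the most reads. Members above background in MESC went from 15 to 28 over whole genes. TMM scaling moved the median log2 ratio of all genes from -0.26 to -0.04, and the share of called genes that were higher in MEF was 38.1% in the main scaling, 45.0% with TMM and 45.6% with median ratios. Depth limits most single members, whose coding spans held a median of 2 reads in MESC.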
